A study of Mus musculus with 18 samples.

Results

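Loss of the progesterone receptor (PGR) isoform PGR-B was examined in granulosa cells of PRBKO mice. Granulosa cells are somatic cells that surround the oocyte and fill the wall of the follicle. The comparison took 6 of the 18 libraries of the study. Of these, 3 were of PRBKO knockout (KO) mice and 3 of wildtype (WT) mice of the same strain. It covered the 13924 of 20711 protein-coding genes that passed a filter for low values. PRBKO mice carry the Pgr tm2Omc allele in the whole animal, not only in the ovary, and lack PGR-B while PGR-A is kept. All mice were 21 to 27 days old, received 5 IU equine chorionic gonadotropin (eCG) and 46 h later 5 IU human chorionic gonadotropin (hCG), and granulosa cells were collected by follicle puncture at 8 h post-hCG. Each library was made from cells of 3 pooled mice, so animals within a library cannot be told apart. For comparison, PRKO mice (Pgr tm1Bwo allele) lack both isoforms and PRAKO mice (Pgr tm1Omc allele) lack PGR-A, each with WT mice of its own strain, 3 libraries per group, under the same hormones and ages.

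PGR is a nuclear receptor that granulosa cells of the preovulatory follicle switch on after the luteinizing hormone (LH) surge, which hCG stands in for here. Bound to progesterone, it binds DNA at inverted repeats called progesterone response elements and changes transcription of nearby genes. PGR-A and PGR-B are made from one gene, and PGR-B is the longer protein, with an additional stretch at its amino terminus. Follicle rupture fails in mice without PGR, and mice lacking PGR-B alone are known to ovulate. The comparison therefore asked which transcripts depend on PGR-B where PGR-A remains.

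Values were in TPM, which gives each transcript as a part of 1000000 in its library after correction for length, and which does not keep the read depth. The make-up of that sum differed between the PRBKO groups. Protein-coding genes held 50.9, 61.2 and 58.8% of TPM in the KO libraries and 42.7, 47.1 and 47.4% in the WT libraries, without overlap. Rn7s2, an RNA of the signal recognition particle that guides secreted proteins, made up 28.2% ± 5.35 in KO and 36.2% ± 2.84 in WT (mean ± SD, n = 3), and Rn7sk, Rmrp and Rpph1, further small structured RNAs, were also at lower shares in every KO library than in any WT library. Values were therefore rescaled so that protein-coding genes summed to 1000000 in each library, and are called rescaled TPM below. The median log2 fold change over all genes tested was 0.22 on the deposited scale and −0.08 after rescaling (13924 genes), where it lay between −0.05 and −0.10 in each quartile of transcript length and of GC content. Libraries labelled PRBKO WT replicate 2 and KO replicate 1 stood at the edge of their groups for several genes described below. WT libraries carried replicate numbers 1, 2 and 4 and KO libraries 1, 2 and 3.

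**Figure D1:**
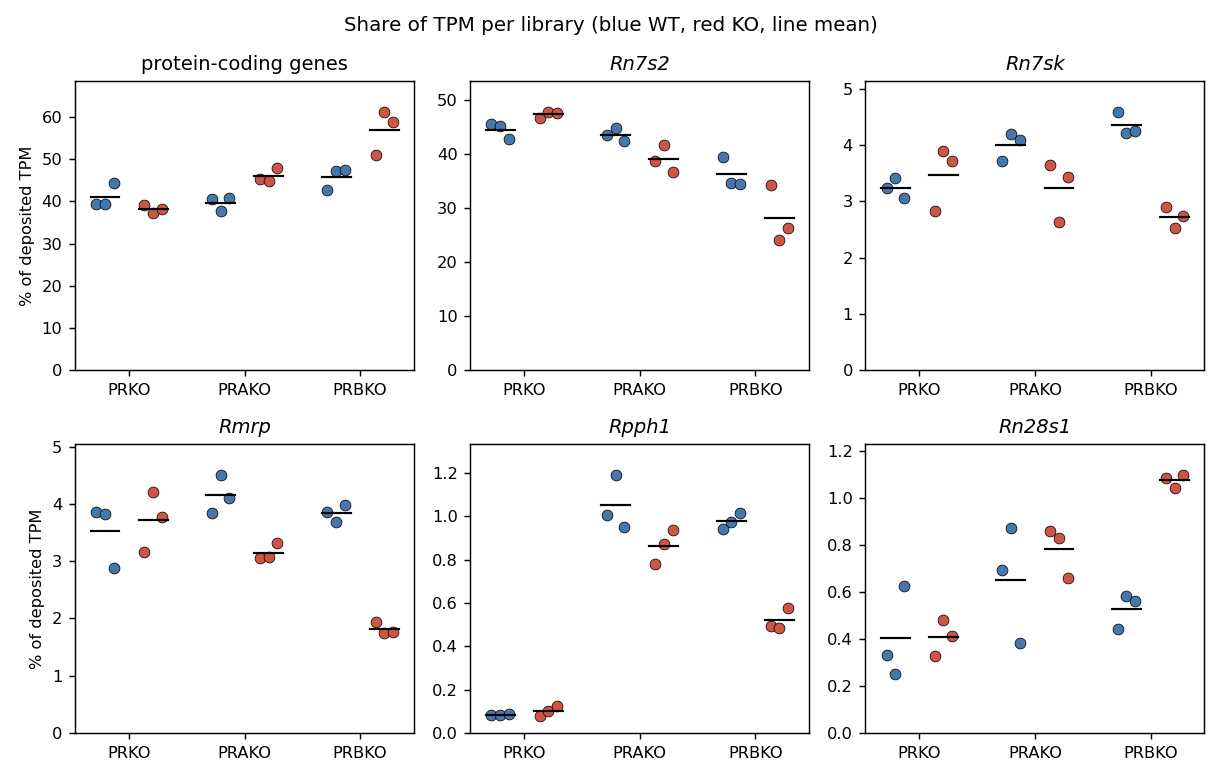
Share of deposited TPM (%, y axis) held by protein-coding genes and by 5 non-coding RNAs in each of the 18 libraries, by strain. Blue points are WT, red points KO and lines group means (n = 3). In PRBKO the protein-coding share was 57.0% in KO and 45.7% in WT, and Rmrp, the RNA of RNase MRP, stood at 1.82% and 3.84%.

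Pgr, the targeted gene (chromosome 9, 8898900 to 8968611 in GRCm38.p6), stood at 3.49, 13.2 and 2.99 rescaled TPM in PRBKO WT replicates 1, 2 and 4, and at 5.15, 7.98 and 5.26 in KO replicates 1, 2 and 3. The groups overlapped, with a log2 fold change and standard error of 0.18 ± 0.44 and an adjusted p of 0.827 in limma, and WT replicate 2 was the highest library. The tables list a single Pgr transcript shared by both isoforms, so this total does not check which isoform was lost. It did not fall in PRKO either, which lacks both isoforms (0.12 ± 0.21), and was higher in PRAKO KO (3.03 ± 0.14). An unchanged total therefore does not show that functional Pgr mRNA was kept. Gene identity was checked with markers. Inha, Foxl2, Nr5a2 and Amhr2, markers of granulosa cells, were present in all 6 libraries, and the 14 granulosa markers summed to between 6713 and 9901 rescaled TPM. Blood endothelial markers summed to between 103 and 121, and macrophage and leukocyte markers to between 79.3 and 128. Higher sums were found for theca and interstitial markers (738 to 904), oocyte markers (589 to 903) and erythroid markers (161 to 613). Most of the theca and interstitial sum was Star, also a steroidogenesis gene, at 594 to 605 in WT and 715 to 766 in KO.

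Few genes changed strongly without PGR-B. With an adjusted p of at most 0.01 and a log2 fold change of at least 1 in size, 11 genes fell (0.079% of 13924 tested) and 1 rose (0.00718%). The largest fall belonged to Kcnv2, a silent subunit of voltage-gated potassium channels, and the single rise to Klf6, a Krüppel-like transcription factor. In the same test 249 genes fell and 69 rose in PRKO (1.77% and 0.491% of 14047), and 270 fell and 80 rose in PRAKO (1.94% and 0.576% of 13886). Only 40 genes in PRBKO had a log2 fold change of 1 or more in size whether or not they passed, against 378 in PRKO and 365 in PRAKO. With 1 library left out 3 to 8 genes fell, the fewest without KO replicate 1 or WT replicate 1, 5 without KO replicate 2 and 4 without WT replicate 4. Smaller differences were frequent: at an adjusted p of at most 0.05 with no fold limit, referred to below as the looser test, 827 genes fell (5.94%) and 249 rose (1.79%). KO libraries lay wholly below WT libraries for 25.9% of genes and wholly above for 7.4%, with the median of all genes at −0.08. The looser test called 926 lower and 581 higher in PRKO (6.59% and 4.14%) and 1320 lower and 1211 higher in PRAKO (9.51% and 8.72%).

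Of the 11 genes that fell, 7 were also called lower in both PRKO and PRAKO (Kcnv2, Tmem255a, Cyp2j11, Ldhd, Porcn, Gpt2 and Apbb3). They make up 4% of the 175 genes called lower in both of those strains, whose libraries are separate from those of PRBKO. All 175 were among the 13924 genes tested in PRBKO. Kcnv2 stood at 4.98, 3.74 and 4.22 rescaled TPM in WT and 1.21, 0.765 and 1.32 in KO (−1.60 ± 0.18 on the log2 scale, limma adjusted p = 0.0039). Tmem255a, a predicted membrane protein on chromosome X, held 11.5, 13.6 and 13.6 in WT and 4.92, 4.76 and 4.41 in KO (−1.36 ± 0.10, limma adjusted p = 0.000879). KO libraries of both genes lay close together and far below the lowest WT library. Cyp2j11, a cytochrome P450, was low in all libraries, at 2.07, 2.41 and 2.61 in WT and 0.755, 0.607 and 0.867 in KO (−1.20 ± 0.16), and other members of its gene cluster may share its reads.

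Genes of mitochondrial amino acid and lactate metabolism and of WNT secretion were among the 7. Gpt2, the mitochondrial transaminase that interconverts alanine and pyruvate (chromosome 8, 85492576 to 85528902), stood at 87.4, 95.8 and 95.3 rescaled TPM in WT and 42.4, 51.1 and 42.7 in KO (−1.03 ± 0.08, limma adjusted p = 0.000879). Ldhd, the mitochondrial D-lactate dehydrogenase (chromosome 8, 111625611 to 111630336), stood at 26.5, 22.4 and 29.4 in WT and 11.2, 10.5 and 11.8 in KO (−1.18 ± 0.10). Every KO library was below every WT library for both enzymes. Porcn, the acyltransferase that adds the lipid WNT ligands need for secretion, stood at 37.6, 32.3 and 40.1 in WT and 15.4, 14.9 and 19.7 in KO (−1.12 ± 0.12). Apbb3, an adaptor that binds amyloid precursor protein, was reduced from a mean of 86.3 ± 7.51 to 42.8 ± 3.23 (SD, n = 3, limma adjusted p = 0.000879). Kcnv2, Tmem255a, Cyp2j11, Ldhd, Porcn, Gpt2 and Apbb3 all fell further in the other strains, with log2 fold changes of −2.38, −2.51, −1.97, −2.49, −2.21, −2.62 and −1.93 in PRKO and −2.92, −3.69, −2.81, −2.59, −2.62, −2.63 and −2.24 in PRAKO. The difference from PRAKO passed an adjusted p of 0.01 and a log2 difference of 1 for all 7, and the difference from PRKO for Ldhd (1.30), Porcn (1.08) and Gpt2 (1.60). Against PRKO, Apbb3 missed only the limit on the log2 difference (0.93, strain-difference limma adjusted p = 1.4e-05).

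The other 4 genes that fell were Nxf3, Dusp2, Hand2 and LOC100861978. Nxf3, of the nuclear RNA export factor family, held 15.9, 17.2 and 17.9 rescaled TPM in WT and 6.83, 8.79 and 6.17 in KO (−1.19 ± 0.12, limma adjusted p = 0.00288), and its log2 fold change was −1.21 in PRKO and −0.69 in PRAKO. For Nxf3 the difference between strains did not pass for either (0.03 ± 0.25 and −0.50 ± 0.25, strain-difference limma adjusted p = 0.962 and 0.219). Dusp2, a phosphatase that inactivates MAP kinases, held 5.34, 4.27 and 5.19 in WT and 2.29, 2.34 and 1.94 in KO (−1.01 ± 0.13). For Dusp2 the log2 fold change was −0.85 in PRKO and −2.43 in PRAKO, and the difference from PRAKO passed (1.41). Hand2, a basic helix-loop-helix transcription factor, was near the filter for low values (1.60 ± 0.197 and 0.364 ± 0.0912, −1.28 ± 0.17). LOC100861978, a predicted gene with no described role here, fell in PRBKO (3.17 ± 0.378 to 1.00 ± 0.106, −1.29 ± 0.15) while its log2 fold change was 0.44 in PRKO and 0.48 in PRAKO, and both differences passed (−1.72 and −1.76).

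**Figure D2:**
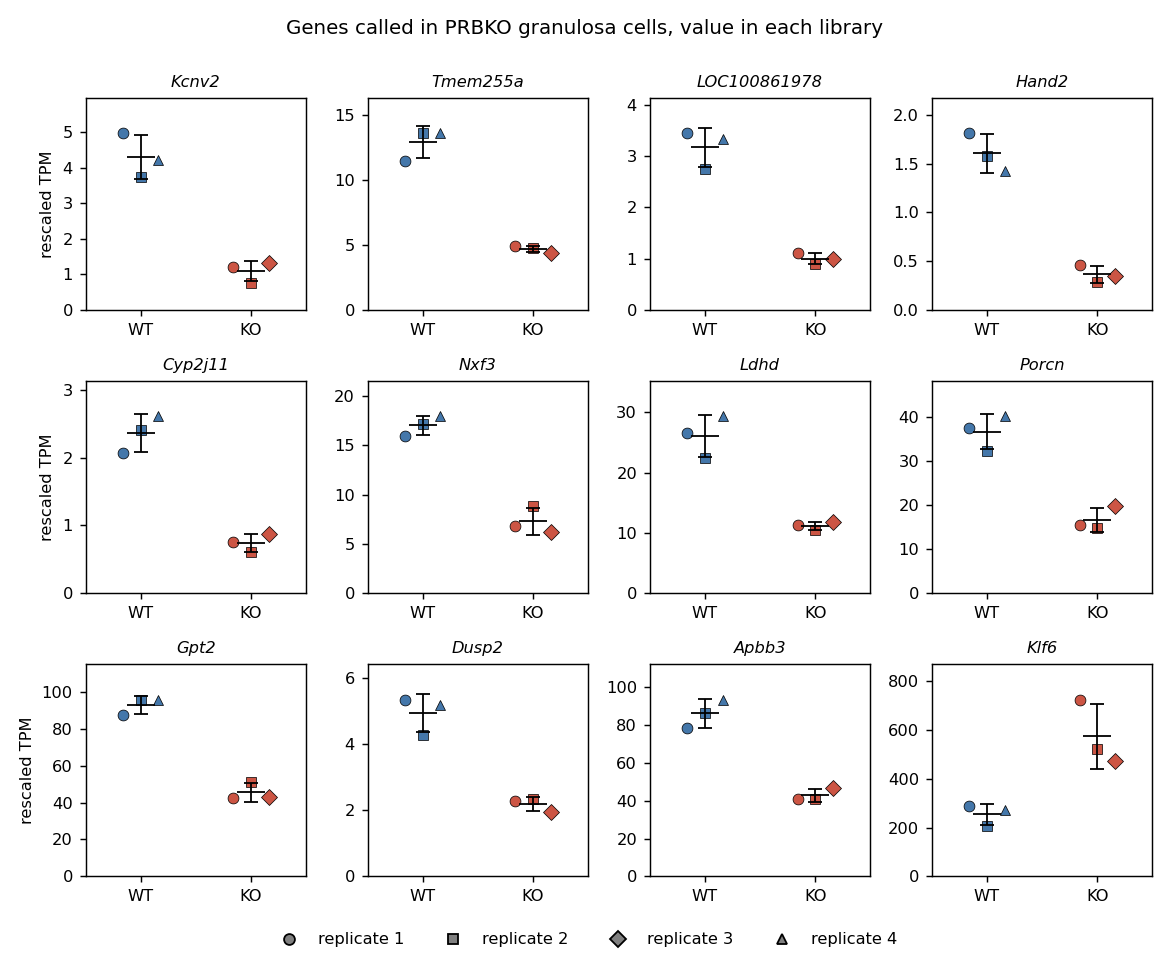
Rescaled TPM (y axis, each from 0) of the 12 genes called in PRBKO in the 3 WT (blue) and 3 KO (red) libraries, with mean and SD (bars). Marker shape gives the replicate number. KO libraries of the 11 lower genes lay below all WT libraries, and those of Klf6 above, at 474 to 724 against 205 to 288.

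Klf6 (chromosome 13, 5861489 to 5870393) stood at 288, 205 and 270 rescaled TPM in WT and 724, 522 and 474 in KO (1.16 ± 0.16, limma adjusted p = 0.00948). Klf2, a related factor (chromosome 8, 72319062 to 72321654), stood at 282, 301 and 305 in WT and 740, 522 and 522 in KO which left it below the required fold (0.99 ± 0.12, with an adjusted p of 0.00576 in limma). In both genes KO replicate 1 was the highest library. Klf6 met both limits without WT replicate 2 and missed at least 1 of them when any of the other 5 libraries was left out. Neither rose in the other strains, where Klf6 had −0.34 and −0.19 and Klf2 −0.32 and −0.22 in PRKO and PRAKO, and the strain differences missed an adjusted p of 0.01 (between 0.0258 and 0.0516 in limma).

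Promoters of genes on either side of the comparison are shown because PGR acts at DNA motifs near its targets. Sequences span 250 bases before to 50 after the annotated start and come from RefSeq (GRCm38.p6), where 7 of the 12 called genes had an entry. Capitals mark matches on either strand to the motif named for that gene. Other motifs were not marked, so lower-case stretches can hold matches to them. Capitals show the core of the progesterone response element (ACANNNTGT) in Ldhd and the GC box bound by KLF and SP factors (GGGCGG) in Gpt2 and Klf6. In Errfi1 they show the cyclic AMP response element (TGACGTCA). Errfi1 has 2 promoter entries, and the one printed was picked because it holds this element. Errfi1, described below, is a gene of RAS and MAP kinase feedback and not in the list of early response genes.
Ldhd (chr8:111630287-111630586, minus strand): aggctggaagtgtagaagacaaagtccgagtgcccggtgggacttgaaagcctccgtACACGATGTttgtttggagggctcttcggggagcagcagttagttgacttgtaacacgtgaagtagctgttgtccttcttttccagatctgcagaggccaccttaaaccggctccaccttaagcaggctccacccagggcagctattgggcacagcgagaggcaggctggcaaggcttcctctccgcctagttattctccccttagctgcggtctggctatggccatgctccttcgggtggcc
Gpt2 (chr8:85492326-85492625, plus strand): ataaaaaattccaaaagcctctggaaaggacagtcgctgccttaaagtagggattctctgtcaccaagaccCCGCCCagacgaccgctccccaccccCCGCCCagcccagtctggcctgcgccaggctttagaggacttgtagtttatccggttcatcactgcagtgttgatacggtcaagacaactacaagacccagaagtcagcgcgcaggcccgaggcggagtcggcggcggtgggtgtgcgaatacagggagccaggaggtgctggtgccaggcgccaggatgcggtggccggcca
Klf6 (chr13:5861239-5861538, plus strand): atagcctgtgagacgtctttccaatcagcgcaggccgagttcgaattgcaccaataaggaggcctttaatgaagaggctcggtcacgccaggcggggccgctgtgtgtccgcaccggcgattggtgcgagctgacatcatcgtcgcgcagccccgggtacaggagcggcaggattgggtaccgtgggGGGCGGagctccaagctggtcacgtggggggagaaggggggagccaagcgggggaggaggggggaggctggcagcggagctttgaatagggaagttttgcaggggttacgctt
Errfi1 (chr4:150854820-150855119, plus strand): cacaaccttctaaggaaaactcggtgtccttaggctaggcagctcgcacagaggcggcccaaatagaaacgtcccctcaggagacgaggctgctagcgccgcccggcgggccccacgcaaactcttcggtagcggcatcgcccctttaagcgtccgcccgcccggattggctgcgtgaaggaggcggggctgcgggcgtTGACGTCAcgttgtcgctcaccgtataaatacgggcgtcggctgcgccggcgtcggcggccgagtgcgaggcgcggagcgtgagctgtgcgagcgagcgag
Shares of all promoters count single promoters, while shares of genes count a gene if any of its promoters matched. The response element core was present in 6.85% of 32851 promoters of that length. By gene it was in 5.30% of the 11153 tested genes with a promoter entry and in 2 of 7 genes called here (Ldhd and Cyp2j11). Of the 175 genes called lower in PRKO and PRAKO, 128 had an entry and 10.2% of these held it. The GC box was in 35.7% of all promoters, 66.5% of tested genes and 4 of 7 called genes. The cyclic AMP element was in 1.79% of all promoters, 3.42% of tested genes, 0 of 7 called genes and 4 of 29 early response genes. These are matches of letters and were not tested for binding.

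Genes that need PGR in the other strains were read next in PRBKO as a group. The 175 genes called lower in both PRKO and PRAKO had a median log2 fold change of −1.74 in PRKO, −1.59 in PRAKO and −0.10 in PRBKO, where that of all genes was −0.08. The spread was wider than that of all genes, with quartiles of −0.38 and 0.09 against −0.19 and 0.03. In the looser test 47 of the 175 fell in PRBKO (26.9%, against 5.94% of all genes), 9 rose (5.14%, against 1.79%) and 119 did not pass. Without WT replicate 1 the number that fell was 24, and without WT replicate 4 it was 29. The 95% confidence interval of the PRBKO log2 fold change lay wholly above −1 for 160 genes, and 7 had an estimate of −1 or lower. All 175 had a smaller fall in PRBKO than in either other strain, which the selection of the genes on large falls there favours. Ranked by p in PRBKO, the first 8 genes (Gpt2, Tmem255a, Apbb3, Mical3, Cd34, Zbtb16, Bean1 and Ldhd) were all among the 175. So were 21 of the 84 genes with an adjusted p of at most 0.01, where the 175 stand among 13924 genes tested.

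Zbtb16, a zinc finger transcription factor, fell partially. It stood at 98.5, 97.7 and 94.9 rescaled TPM in WT and 52.7, 61.2 and 57.8 in KO (−0.76 ± 0.06, limma adjusted p = 0.000926). Both groups were tight and did not overlap. The fold change was −3.91 in PRKO and −2.15 in PRAKO, and PRBKO differed from each (by 3.15 and 1.39, strain-difference limma adjusted p = 2.3e-08 and 0.000333). Cd34, a sialomucin of progenitor and endothelial cells, held 287, 316 and 305 in WT and 175, 183 and 184 in KO (−0.74 ± 0.05). Mical3, a flavoprotein monooxygenase, held 104, 112 and 101 in WT and 61.8, 62.7 and 63.5 in KO (−0.75 ± 0.05). Its log2 fold change was −1.01 in PRKO and −1.10 in PRAKO. Neither difference from PRBKO reached the required log2 difference of 1, so that test does not show whether the falls were equal. Slc7a11, the cystine transporter that feeds glutathione synthesis (−0.68 ± 0.08), Adam8, a membrane protease (−0.60 ± 0.08), Bean1 (−0.84 ± 0.07), Apoh, a phospholipid-binding plasma protein (−0.87 ± 0.16) and Cited1, a transcriptional coregulator (−0.63 ± 0.13) passed the looser test. The Cited1 groups did not overlap, at 132, 101 and 147 in WT and 90.1, 70.6 and 83.5 in KO.

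Of 15 genes known from earlier work as PGR targets in granulosa cells, Zbtb16, Cited1 and Adam8 fell (20%, against 5.94% of all genes). None rose and 12 did not pass (median −0.03). Most genes that the study names for its PGR network stayed near the WT level. Epas1, a hypoxia-inducible transcription factor, stood at 501, 488 and 509 rescaled TPM in WT and 515, 461 and 493 in KO (−0.03 ± 0.06, with a 95% interval of 0.13 on each side), against −2.60 in PRKO and −3.04 in PRAKO. Cxcr4, a chemokine receptor, had 491, 431 and 466 in WT and 482, 490 and 502 in KO (0.09 ± 0.06). Pparg, a nuclear receptor of lipid metabolism (−0.22 ± 0.10), Cldn1, a tight junction protein (−0.05 ± 0.12), Pdlim1, an actin-associated LIM protein (−0.19 ± 0.12), Sorbs3, a focal adhesion adaptor (0.03 ± 0.05), Adamts1, a protease that cleaves versican (0.12 ± 0.13), and Edn2, the vasoconstrictor endothelin-2 (−0.24 ± 0.28), did not pass the looser test. Gas7, which was named for its strain difference, did not pass either (0.01 ± 0.05) and fell by 2.98 and 2.25 in the other strains. Edn2 was the least precise, since KO replicate 1 stood at 12.9 and the others at 5.45 and 5.11. Cdk6, a cell cycle kinase (−0.38 ± 0.09), fell and Ptgs2, a prostaglandin synthase that was not called in the other strains, rose (0.43 ± 0.11), both only in the looser test. The Ptgs2 estimate was 0.50 ± 0.20 in PRKO and 0.06 ± 0.10 in PRAKO, and neither strain difference passed (strain-difference limma adjusted p = 0.892 and 0.349). Several of these genes were named by the study from its PRKO and PRAKO comparisons of these samples and others from earlier work, so they are not independent of the PRKO and PRAKO values.

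Some genes of the group went the other way. Cryab, a small heat shock protein, stood at 7.30, 12.0 and 9.68 rescaled TPM in WT and 20.3, 17.9 and 20.1 in KO (1.00 ± 0.15, limma adjusted p = 0.0115), where it fell by 1.13 in PRKO and 1.18 in PRAKO. Zcchc24 held 55.5, 58.8 and 58.9 in WT and 82.4, 101 and 112 in KO (0.75 ± 0.10), and Pdlim4, a LIM protein of actin filaments, 103, 122 and 127 in WT and 153, 162 and 184 in KO (0.50 ± 0.09). KO and WT libraries did not overlap for these 3 genes, and each differed from both other strains in the test of the difference. Lyve1, a hyaluronan receptor with the deepest falls elsewhere (−5.14 and −6.06), stood at 184, 180 and 229 in WT and 350, 219 and 293 in KO and did not pass (0.52 ± 0.15, limma adjusted p = 0.0718). Across all genes the knockout effect differed between PRBKO and PRKO for 326 of 14374 genes (251 higher in PRBKO, 1.75%, and 75 lower, 0.522%) and between PRBKO and PRAKO for 329 (251 higher, 1.75%, and 78 lower, 0.543%).

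**Figure D3:**
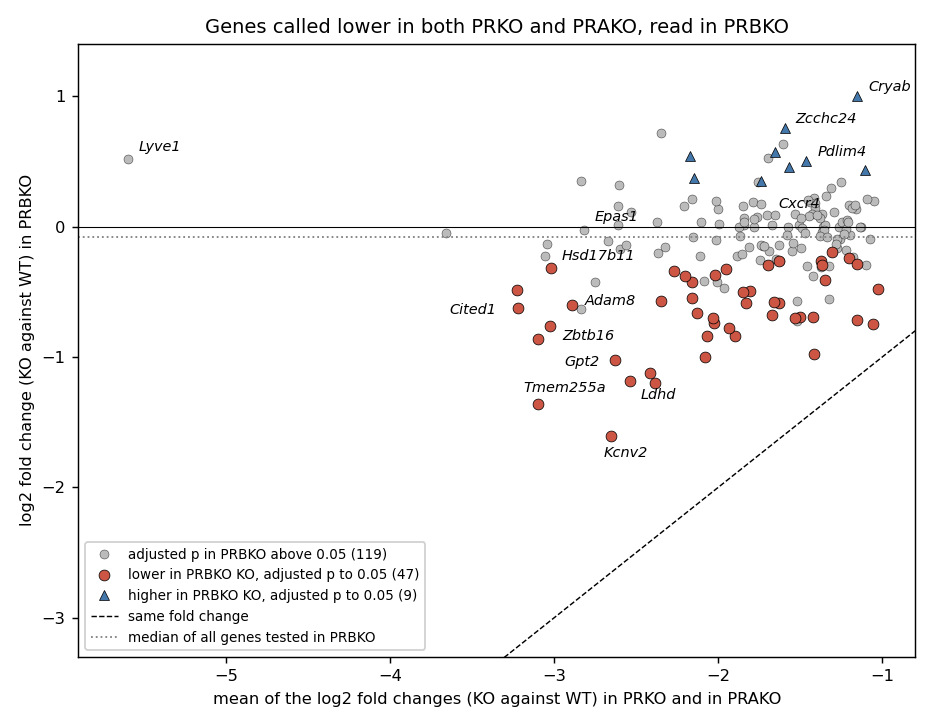
The 175 genes called lower in both PRKO and PRAKO, with the mean of their 2 log2 fold changes there (x axis) and the log2 fold change in PRBKO (y axis). Red points (47) were lower and blue triangles (9) higher in PRBKO in the looser test, and 119 grey points did not pass. All points lie above the dashed line of equal change, and the median in PRBKO was −0.10.

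Genes induced soon after hormonal or growth factor signals, known as immediate-early genes, were mostly higher in PRBKO KO. Of 37 such genes 9 rose in the looser test (24.3%, against 1.79% of all genes), Dusp2 fell and 27 did not pass. The median was 0.36, and 33 of the 37 had a value above 0. The list median was 0.01 in PRKO and 0.18 in PRAKO. Fos, a subunit of the transcription factor AP-1, stood at 769, 550 and 685 rescaled TPM in WT and 1140, 959 and 1057 in KO (0.67 ± 0.12, limma adjusted p = 0.0161). Jun, its partner, stood at 1052, 843 and 989 in WT and 1539, 1299 and 1269 in KO (0.51 ± 0.10). KO and WT libraries of both genes did not overlap. Socs3, an inhibitor of cytokine signalling, held 32.1, 23.7 and 29.7 in WT and 53.6, 53.5 and 47.6 in KO (0.85 ± 0.11, limma adjusted p = 0.00576). Socs3 also rose in PRAKO (0.52 ± 0.08, limma adjusted p = 0.000748), and its strain difference from PRAKO did not pass (0.33 ± 0.35). Sik1, a kinase induced by cyclic AMP (0.94 ± 0.15), Rhob, a small GTPase (0.74 ± 0.10), and Btg2, an antiproliferative factor (0.69 ± 0.17), also rose.

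Errfi1, Trib1, Emp1 and Anxa1 are described because the naming rule picked them by their rises or their p, and they form no list. Errfi1, an inhibitor of the EGF receptor, stood at 331, 326 and 330 rescaled TPM in WT and 736, 514 and 560 in KO (0.86 ± 0.11, limma adjusted p = 0.0073). Trib1, a pseudokinase, had 52.9, 30.5 and 51.2 in WT and 148, 78.5 and 79.8 in KO (1.15 ± 0.26), Emp1, a membrane protein, 26.5, 22.7 and 28.4 in WT and 93.4, 54.4 and 41.6 in KO (1.19 ± 0.24), and Anxa1, a phospholipid-binding protein, 82.2, 67.9 and 86.2 in WT and 234, 147 and 119 in KO (1.03 ± 0.20). KO replicate 1 was the highest library for each of Errfi1, Trib1, Emp1 and Anxa1. Of the 37 immediate-early genes 8 rose without KO replicate 1 and 5 without WT replicate 1. Of 19 KLF and SP factors tested, Klf6, Klf2 and Klf4 (0.91 ± 0.23) rose (15.8%, against 1.79% of all genes). Klf17 fell (−0.37, 5.26%, against 5.94% of all genes) and 15 did not pass. Among 21 genes of RAS and MAP kinase feedback, Errfi1, Dusp1 (0.59) and Spry2 (0.67) rose (14.3%, against 1.79% of all genes), Dusp2 and Dusp7 (−0.39) fell (9.52%, against 5.94%) and 16 did not pass. The KO libraries also differed from WT in RNA make-up, as described above. KO replicate 1, the highest library for Klf6, Klf2, Errfi1, Trib1, Emp1 and Anxa1, had the KO protein-coding share nearest to WT (50.9%). The part of the RNA make-up in the changes of these genes was not tested.

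Markers of the granulosa cell itself were mostly lower. Of 14 markers 8 fell in the looser test (57.1%, against 5.94% of all genes), none rose and 6 did not pass, with a median of −0.51. Inhbb, the subunit of inhibin B and activin B, had the largest change, at 221, 329 and 196 rescaled TPM in WT and 96.7, 116 and 131 in KO (−1.09 ± 0.18, limma adjusted p = 0.0135). Foxl2, a transcription factor that maintains granulosa identity, stood at 106, 114 and 105 in WT and 68.9, 76.5 and 81.7 in KO (−0.52 ± 0.07, limma adjusted p = 0.00739). The groups of both genes did not overlap. Amh, a hormone of growing follicles (−0.73 ± 0.12), Esr2, estrogen receptor beta (−0.54 ± 0.13), Hsd17b1, which makes estradiol (−0.53 ± 0.10), and Fst, which binds activin (−0.32 ± 0.05), fell as well. Outside the list, the hedgehog ligand Ihh stood at 37.7, 56.2 and 30.4 in WT and 20.5, 19.8 and 17.7 in KO (−1.04 ± 0.18). Cyp19a1, the aromatase, did not pass (−0.93 ± 0.33, limma adjusted p = 0.107), and its WT replicate 2 stood at 72.8 with the other WT libraries at 27.4 and 25.9. WT replicate 2 was also the highest library for Inhbb, Foxl2, Esr2, Hsd17b1 and Ihh, and without it 9 of the 14 markers fell. Without KO replicate 1, KO replicate 3 or WT replicate 1 the number was 4 each time. In bulk RNA, fewer cells of a type and less RNA per cell cannot be told apart.

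Genes of the steroidogenesis list went in both directions. Of the 22 tested, 3 rose (13.6%, against 1.79% of all genes), 2 fell (Inhbb and Hsd17b1, 9.09%, against 5.94%) and 17 did not pass, with a median of −0.04. Inhbb is the inhibin and activin subunit and no steroidogenic enzyme, so Hsd17b1 was the only enzyme of the list that fell. Both are also among the granulosa markers above. Star, which carries cholesterol into mitochondria, stood at 594, 605 and 598 rescaled TPM in WT and 756, 715 and 766 in KO (0.32 ± 0.05, limma adjusted p = 0.0146). Lhcgr, the LH receptor, held 233, 248 and 249 in WT and 285, 299 and 278 in KO (0.24 ± 0.05), and Fdx1, the electron donor of side-chain cleavage, rose too (0.36 ± 0.08). Groups of Star and Lhcgr did not overlap. Of 29 genes of the ovulatory response to the LH surge, 5 rose (17.2%, against 1.79% of all genes), among them Ptgs2. In that list 2 fell (6.90%, against 5.94%, so near the share of all genes) and 22 did not pass, with a median of 0.12.

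Transcripts of the oocyte were mostly lower in KO. Of 14 oocyte markers 11 fell in the looser test (78.6%, against 5.94% of all genes) and all 14 had a value below 0, with a median of −0.44. Without KO replicate 3 the number was 7, and without WT replicate 1 it was 6. Zp3, a zona pellucida protein, stood at 163, 153 and 139 rescaled TPM in WT and 104, 109 and 99.4 in KO (−0.54 ± 0.07, limma adjusted p = 0.00582). Gdf9, the oocyte growth factor, held 163, 161 and 151 in WT and 116, 122 and 121 in KO (−0.40 ± 0.05), and Padi6, of the cytoplasmic lattices, fell by 0.49 on the log2 scale. The summed level of the 14 markers was 589 to 660 in KO and 814 to 903 in WT, without overlap and with none of the markers at 0 throughout. The list also lay below 0 in PRKO and PRAKO (medians −0.30 and −0.31). The part of oocyte RNA in the falls of other genes was not tested.

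Histone genes that are expressed in S phase and whose mRNAs lack a poly(A) tail were lower as a group. Of 64 tested, 28 fell in the looser test (43.8%, against 5.94% of all genes), 1 rose and 35 did not pass, and 62 had a value below 0 (median −0.38). H2ac18, the most abundant to be named here, stood at 2765, 2479 and 2462 rescaled TPM in WT and 1759, 1693 and 1828 in KO (−0.54 ± 0.07, limma adjusted p = 0.00835). H4f16 had the largest fall (−0.95 ± 0.10) and H3c14 was the exception (1.86 ± 0.32). The fall of H4f16 was not particular to PRBKO. It also fell in PRAKO (−0.94 ± 0.20, limma adjusted p = 0.00531), with a strain difference of −0.0018, and did not fall in PRKO (0.28 ± 0.17). Copies of one histone are nearly identical, so reads can be shared between them and single genes are uncertain. Without WT replicate 1 the number that fell was 9, and without WT replicate 4 it was 16. The medians were 0.26 in PRKO and 0.10 in PRAKO. Of 38 genes of mitosis and DNA replication, 5 fell (13.2%, against 5.94% of all genes), none rose and the median was −0.19. Mki67, the proliferation antigen, was among the 5 (155, 153 and 142 in WT, 97.0, 122 and 111 in KO, −0.45 ± 0.08). In the same libraries Rmrp, Rpph1 and Rn7sk, which also lack poly(A) tails, held lower shares of TPM, while Rn28s1, a ribosomal RNA without such a tail, held a higher share (1.08% against 0.528%) and snoRNA genes held 1.49% in KO and 1.44% in WT. The part of the RNA make-up in the histone values was not tested.

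On the deposited TPM scale, where the median of all genes was 0.22, none of the granulosa or oocyte markers passed as lower, 1 histone gene did, and 24 of the 37 immediate-early genes passed as higher. None of the 11 genes called lower met the fold and adjusted p limits there, while the 9 of them that passed the filter there kept log2 fold changes below 0. Directions of small changes in either list depend on this scaling, and values relative to the median of all genes on the rescaled scale were −0.43 for granulosa markers, −0.36 for oocyte markers, −0.30 for histones and 0.44 for immediate-early genes.

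**Figure D4:**
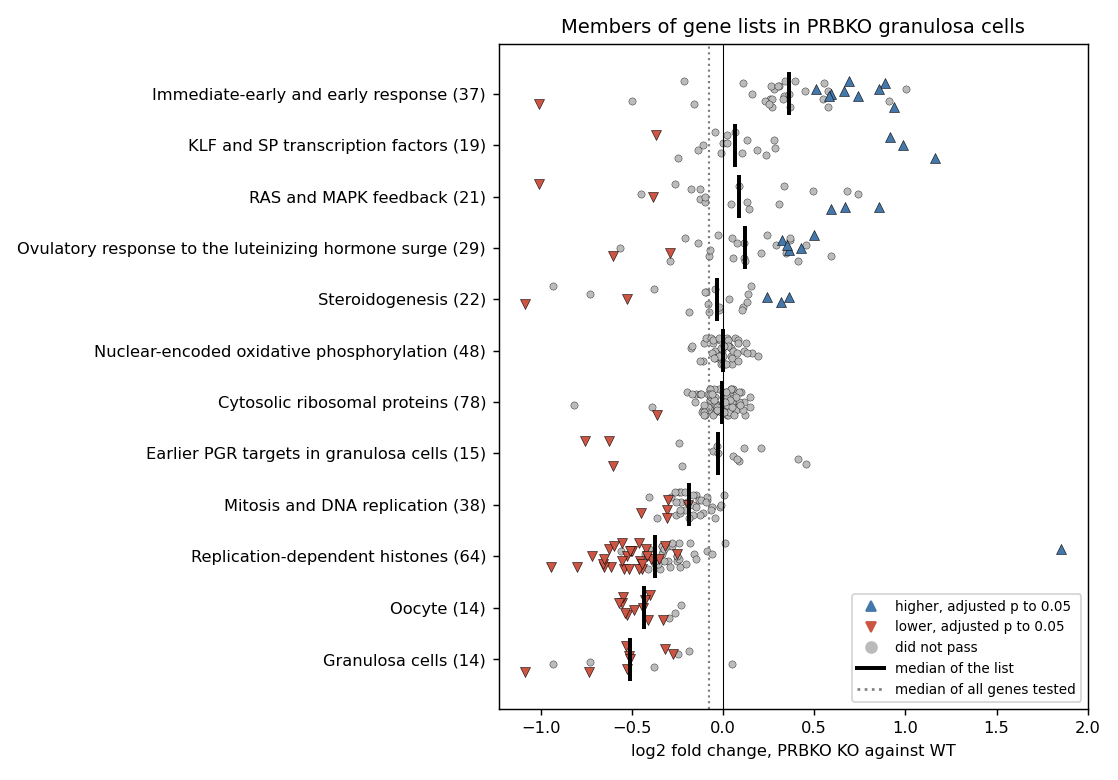
Log2 fold change in PRBKO (x axis) of each member of 12 gene lists (number tested in brackets). Blue triangles rose and red triangles fell in the looser test, grey points did not pass, black bars are list medians and the dotted line is the median of all genes (−0.08). Granulosa, oocyte and histone lists lie to the left, with medians of −0.51, −0.44 and −0.38, and the immediate-early list to the right at 0.36.

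**Figure D5:**
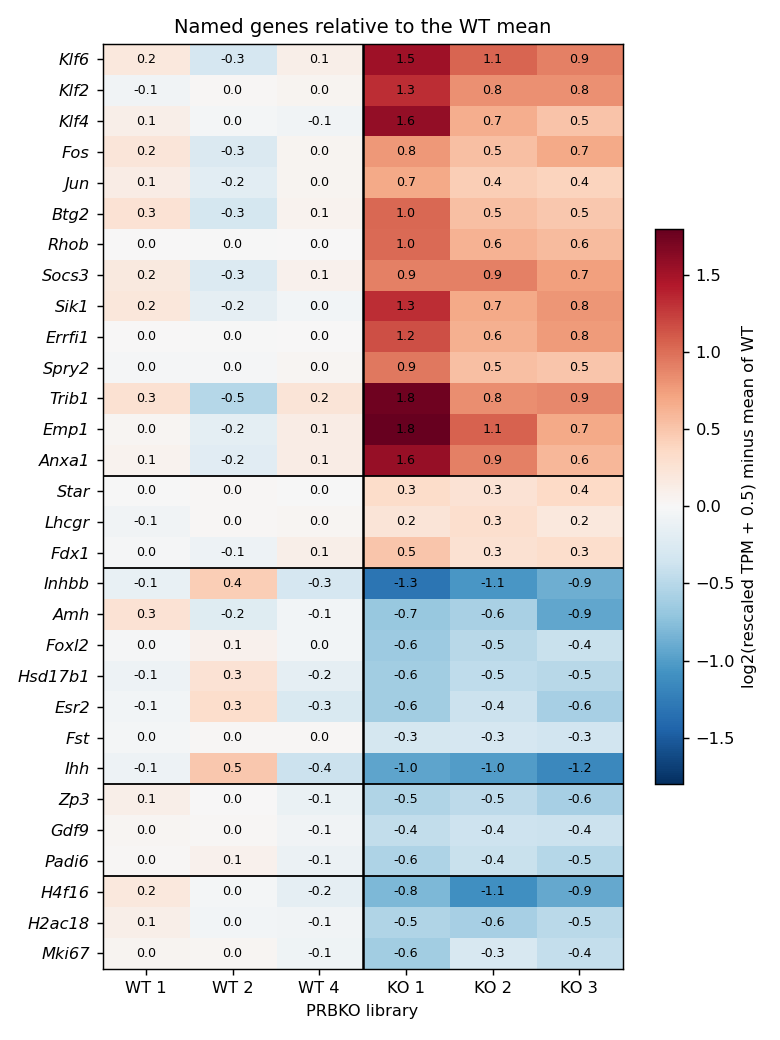
Log2(rescaled TPM + 0.5) of named genes in each PRBKO library minus the mean of the 3 WT libraries (colour and printed value). The first block holds early response genes together with KLF, feedback and other genes that rose. Steroidogenesis, granulosa, oocyte and proliferation genes follow in further blocks. KO replicate 1 holds the highest values of most genes in the first block, and WT replicate 2 the highest of Inhbb and Ihh.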

How the data were processed

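Granulosa cell RNA of 3 PRBKO KO and 3 PRBKO WT libraries was compared, with PRKO and PRAKO libraries (3 per group) for strain differences. Per the labels, total RNA was prepared with a kit that depletes unwanted transcripts and sequenced as read pairs. Values deposited by the authors were TPM per transcript for each strain. Per the study's methods Salmon was run on GENCODE release M25 of GRCm38.p6, while the tables list RefSeq transcripts, and why these differ was not stated. The submitters' processing notes also name FastQC, edgeR and limma, whose versions are not given in the sources used here. A further replicate per group that the study describes was not analysed here.

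TPM of 42072 of 42251 transcripts was summed to 24963 genes, of which 20711 were protein coding, and rescaled so that these summed to 1000000. TPM keeps no depth, so counting errors and detection floors could not be given. Genes with at least 1 rescaled TPM in at least 3 of 6 libraries were tested with limma 3.58.1 in R 4.3.3 on log2(value + 0.5), a scale that understates changes of low genes, with a trended prior, two-sided, and Benjamini-Hochberg adjustment over all genes tested. The study used voom weights, which need counts. For strain differences all 18 libraries entered one fit. A call required an adjusted p up to 0.01 together with a change of 1 or more on the log2 scale. Lists are described by counts and medians with no test. The libraries are separate pools of 3 mice. The fits were checked on simulated data. Python 3.11.15, pandas 2.3.3 and matplotlib 3.10.9 were used for tables and figures.

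The genes and lists were chosen with earlier results of these data known. Named genes were Pgr, genes the study names, Klf2 and Klf6, called genes with groups that do not overlap and a mean of at least 2 rescaled TPM, topped up from the looser test to 15 each way, up to 4 members of each list by p, the 8 smallest p of each strain difference each way, and the 10 genes lowest in both PRKO and PRAKO. Hand2, Cd34, Mical3, Bean1, Fos, Jun, Btg2, Cyp19a1, Fdx1, Dusp1, Cited4 and Adcyap1 were named after their values were seen. Alternatives were the deposited scale, median-of-ratios factors, quantile normalization, pseudocounts of 1 and 0.1, a mean minimum of 5 TPM or no filter, array weights, a prior held constant, a joint fit, a replicate block and leaving out each library. List counts under alternatives were added after the data were seen.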

Additional observations from a re-analysis of the deposited data

Results flagged for a closer look

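Knockout effects of several named genes that passed the looser test in PRBKO differed from those in another strain (limma fit of all 18 libraries, adjusted p to 0.01 with a log2 difference of 1 or more). Values are the log2 fold change in PRBKO minus that in the other strain, so a positive value is a smaller fall or a larger rise in PRBKO. Genes with a smaller fall than in PRKO were Zbtb16 (3.15), Cited1 (2.10), Cdk6 (1.91), Ldhd (1.30), Porcn (1.08), Gpt2 (1.60), Adam8 (1.93), Cd34 (1.399), Slc7a11 (1.43), Hsd17b11 (3.14) and Apoh (2.46). Genes with a smaller fall than in PRAKO were Zbtb16 (1.39), Cited1 (3.09), Cdk6 (1.73), Kcnv2 (1.32), Tmem255a (2.33), Cyp2j11 (1.60), Ldhd (1.41), Porcn (1.501), Gpt2 (1.61), Dusp2 (1.41), Apbb3 (1.24), Adam8 (2.65), Cd34 (1.17), Bean1 (1.14), Hsd17b11 (2.27) and Apoh (2.01).

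Genes that rose in PRBKO and were lower or little changed elsewhere differed too. Against PRKO these were Pdlim4 (2.26), Errfi1 (1.19), Anxa1 (1.52), Cryab (2.13) and Zcchc24 (2.68). Against PRAKO they were Pdlim4 (1.67), Errfi1 (1.56), Emp1 (1.75), Anxa1 (1.47), Cryab (2.18) and Zcchc24 (2.01). Genes lower in PRBKO than the other strain's effect were LOC100861978 (−1.72 against PRKO and −1.76 against PRAKO), the histone gene H4f16 (−1.23 against PRKO) and Inhbb (−1.21 against PRAKO).

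Outside the protein-coding genes, the share of Rn28s1, a large ribosomal RNA, was 1.08% in PRBKO KO and 0.528% in PRBKO WT, and transcripts matched to no gene held 1.56% and 1.13%. Groups of 3 libraries are too small for a check of single outlying libraries.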

How the results depend on the processing

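All 12 called genes kept their direction under every alternative in which they were tested, and all but Dusp2 passed the looser test in each. Tmem255a was called in 15 of 17 alternatives, Ldhd in 13, Nxf3 in 11, and Klf6 and Apbb3 in 7, while Cyp2j11 and Hand2 were called in 3 of 12 and Dusp2 in 3 of 16. Genes called higher and lower numbered 13 and 6 on the deposited scale (all genes, small RNAs included, of which Klf6 alone was among the 12), 0 and 6 with median-of-ratios factors and with quantile normalization, 0 and 5 without a filter, and 0 and 0 with a constant prior. A pseudocount of 1 gave 7 lower, a mean of at least 5 TPM 6 lower and array weights 2 higher. With an adjusted p to 0.05 and no fold limit they were 249 and 827, and 3805 genes had an unadjusted p under 0.05. Leaving out a library gave 0 to 4 higher and 3 to 8 lower, of which 2 to 8 were among the 11. Strain differences numbered 561 against PRKO on the deposited scale and 308 to 336 on leaving out a library, and 305 to 338 against PRAKO.

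For the genes lower in both PRKO and PRAKO, which number 123 when called on the deposited scale, the median in PRBKO was 0.16 there with 7 lower (all genes 0.22), and −0.12 to −0.08 with 24 to 40 lower on leaving out a library. Granulosa markers that fell numbered 0 on the deposited scale, 5 with median-of-ratios factors and 4 to 9 on leaving out a library. Oocyte markers numbered 0 and 6 to 11, histones 1 and 9 to 25, and immediate-early genes that rose 24 and 5 to 8. Signs changed for genes near 0. On the deposited scale Epas1 had 0.29, Pparg 0.088, Cldn1 0.25, Pdlim1 0.12 and Edn2 0.050. Median-of-ratios factors gave 0.049 for Epas1 and 0.028 for Cldn1, and quantile normalization 0.056 for Cldn1. On leaving out a library the range was −0.19 to 0.80 for Pgr, −0.065 to 0.015 for Epas1, −0.14 to 0.063 for Cldn1, −0.027 to 0.20 for Adamts1 and −0.018 to 0.032 for Gas7.

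Replicate numbers 1 and 2 occur in both groups, and the labels do not say that they mark a shared batch. Deviations of same-numbered libraries correlated at 0.125 and 0.16, and those of KO replicate 3 and WT replicate 4 at 0.115. All other pairs lay between −0.133 and 0.0136. A pairing of KO replicate 3 with WT replicate 4 was not modelled. A replicate block, in which only the 4 libraries numbered 1 and 2 bear on the fold change, gave 19 genes higher and 19 lower. With that block 21 immediate-early genes were higher, and Pgr stood at −0.10, Cldn1 at 0.027 and Edn2 at 0.017. TPM limits precision in that the reads behind a low value are unknown.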

Other observations

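Genes that were called higher in both PRKO and PRAKO had a median above that of all genes in PRBKO. Of 31 such genes 29 were tested, 5 rose in the looser test (17.2%, against 1.79% of all genes), none fell, and the median was 0.30. Cited4, a transcriptional coregulator, stood at 369, 305 and 344 rescaled TPM in WT and 589, 439 and 513 in KO (0.59 ± 0.11, limma adjusted p = 0.0175). Adcyap1, the neuropeptide PACAP, stood at 6.99, 9.21 and 7.55 in WT and 12.6, 14.8 and 13.1 in KO (0.74 ± 0.11), and Hk2, a hexokinase, rose as well (0.53 ± 0.09). KO libraries lay above all WT libraries for these 3 genes.

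None of 48 nuclear-encoded respiratory chain genes passed the looser test, and 1 of 78 ribosomal protein genes fell (1.28%, against 5.94% of all genes). Their medians were −0.00 and −0.01. Of 26 genes of cholesterol synthesis 4 rose (15.4%, against 1.79% of all genes), none fell, 21 had a value above 0 and the median was 0.11. Of 24 unfolded protein response genes 1 rose (4.17%, against 1.79% of all genes) and 1 fell (4.17%, against 5.94%). Of 18 nuclear receptor coregulators none passed. Erythroid genes had the highest median of the marker lists (0.81 over 7 genes), with none passing. Hbb-bt, a beta globin, held 16.1, 17.3 and 49.6 in WT and 55.1, 50.4 and 56.1 in KO (1.15 ± 0.34, limma adjusted p = 0.0735).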
